A study of Mus musculus with 3 samples.

Results

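The late-numbered miRNAs of mouse embryonic stem (ES) cells are described here, meaning those whose miRNA number is 1900 or higher. They were chosen by name alone, with any letter and either arm, and miR-3070, miR-3071, miR-3072, miR-3096 and miR-3473 were left out. The rule found 83 of the 693 miRNAs listed in the deposited files. Their numbers ran from 1927 to 5620 and they came from 71 hairpin names, while 600 listed miRNAs had numbers of 1843 or lower and the last 10 were the products left out by the rule. By number, 34 lay in the 1900s, 30 in the 3000s and 19 in the 5000s.

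Small RNA was sequenced from TAG1 cells, an ES cell line in which doxycycline (Dox) switches on Alk4*, a constitutively active activin/Nodal receptor. There was 1 library for each of 3 conditions. The 0 hr cells were untreated, the 16 hrs SB cells had 30 µM of an Alk4/5/7 receptor kinase inhibitor for 16 hrs, and the 16+12 hrs cells had the same inhibitor treatment and then 1 µg/µl Dox for 12 hrs. The inhibitor is spelled SB-431541 in the labels and SB-431542 in the methods. All cells carried the inducible receptor, and all came from this line. The untreated cells were in serum medium and both treated groups in serum-free medium, so in any comparison with 0 hr the medium and the treatment cannot be told apart. With 1 library per condition there was no replicate, and no p-value was computed for any condition.

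A miRNA is cut from a hairpin transcript by Drosha in the nucleus and by Dicer in the cytoplasm, which leaves a short duplex with a 5p and a 3p arm. Usually the strand of one arm is loaded into an Argonaute protein and the other is degraded. Target mRNAs are recognised mainly through the seed, bases 2 to 8 of the mature strand. Active Alk4 phosphorylates Smad2 and Smad3, which enter the nucleus, regulate transcription and can also bind the Drosha complex. miRNA numbers are given in order of registration, so late numbers mostly mark miRNAs that were found by deep sequencing, are scarce, or are restricted to few species. Some late entries overlap other short RNAs such as snoRNAs and tRNAs.

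The mature sequences of 62 of the 83 were matched by name in RefSeq (GRCm38.p6). Those below are the members with a matched sequence that the results turn on, 5′ to 3′, with the seed in capitals. They begin with the abundant ones.
miR-1981-5p: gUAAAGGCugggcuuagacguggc
miR-1983: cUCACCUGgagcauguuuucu
miR-1934-3p: aGGAUGACgguggggcugguga
miR-3095-3p: uGGACACUggagagagagcuuuu
miR-1968-5p: uGCAGCUGuuaaggaugguggacu
miR-5121: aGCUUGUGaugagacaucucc
miR-5126: gCGGGCGGggccgggggcgggg
The next ones had large differences between libraries.
miR-1943-5p: aAGGGAGGaucugggcaccugga
miR-1947-5p: aGGACGAGcuagcugagugcug
miR-5128: cAAUUGGGgcuggcgagauggcu
miR-5122: cCGCGGGAcccggggcugug
The last ones are both arms of the hairpins whose arm balance differed between libraries. miR-3102 has 4 listed products, an outer duplex and an inner duplex whose names repeat the arm after a point and a 2.
miR-3068-5p: uUGGAGUUcaugcaaguucuaacc
miR-3068-3p: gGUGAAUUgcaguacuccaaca
miR-3102-5p: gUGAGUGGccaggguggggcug
miR-3102-3p: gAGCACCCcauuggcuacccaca
miR-3102-5p.2-5p: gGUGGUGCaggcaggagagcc
miR-3102-3p.2-3p: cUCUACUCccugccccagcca

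Seeds were rarely shared among the matched sequences, and members without a matched sequence were not compared. Of the 62 matched sequences, 2 (3.23%) had the seed of another listed miRNA, against 34.0% of the 450 matched sequences numbered below 1900. The pairs are shown because both partners of each pair carry the same seed but differ elsewhere.
miR-149-3p: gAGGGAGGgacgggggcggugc
miR-412-3p: uUCACCUGguccacuagccg
The seed AGGGAGG was common to miR-1943-5p and miR-149-3p, and the seed UCACCUG to miR-1983 and miR-412-3p. miR-149-3p was at 3.65 RPM in 0 hr, 2.82 RPM in 16 hrs SB and 9.90 RPM in 16+12 hrs, where RPM is the number of reads scaled to 1000000 reads of the library's total, as implied by the deposited values. miR-412-3p was at 2.10, 1.76 and 2.02 RPM in the same order, far below miR-1983.

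The values in the files were whole multiples of a step in each library, so the reads behind each value could be recovered. The steps correspond to library totals between 9895513 and 11354692 reads, of which 24.1% to 33.4% were on listed miRNAs. These totals lie below the read totals that the study gives, and the reason was not tested. The ES cell label was checked with 8 miRNAs of the miR-290 and miR-302 families, which were all listed and summed to between 35168 and 41077 RPM. Of these 8, 3 were called higher in 16 hrs SB over 0 hr, and 1 higher and 6 lower in 16+12 hrs over 16 hrs SB, so the sum does not describe each of them. A list of 8 fibroblast miRNAs was also listed in full, with none at 0, and summed to 2261 RPM in 0 hr, 5314 RPM in 16 hrs SB and 2888 RPM in 16+12 hrs. All 8 were called higher in 16 hrs SB over 0 hr, and 7 of 8 lower in 16+12 hrs over 16 hrs SB. The part of fibroblast RNA in the results below was not tested.

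The late-numbered miRNAs were scarce. Together they held 18590 reads in 0 hr, 17870 in 16 hrs SB and 20366 in 16+12 hrs. This was 0.599% (0.591 to 0.608), 0.652% (0.643 to 0.662) and 0.617% (0.608 to 0.625) of the miRNA reads, with 95% Clopper-Pearson intervals that cover counting error only, as do all intervals given here. Those numbered below 1900 held 92.1%, 90.2% and 97.2%. The median late-numbered miRNA was at 1.73 RPM in 0 hr, 1.23 RPM in 16 hrs SB and 2.83 RPM in 16+12 hrs, against 11.6, 9.51 and 12.2 RPM for those numbered below 1900. None reached 1000 RPM in any library, which 62 of those numbered below 1900 did. Over the 3 libraries, 51 of the 83 (61.4%) had fewer than 100 reads and 10 (12.0%) had 1000 or more, against 30.0% and 36.5% of those numbered below 1900. In 37 of the 83 at least 1 library had fewer than 10 reads, and in 12 every library had 100 or more.

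**Figure D1:**
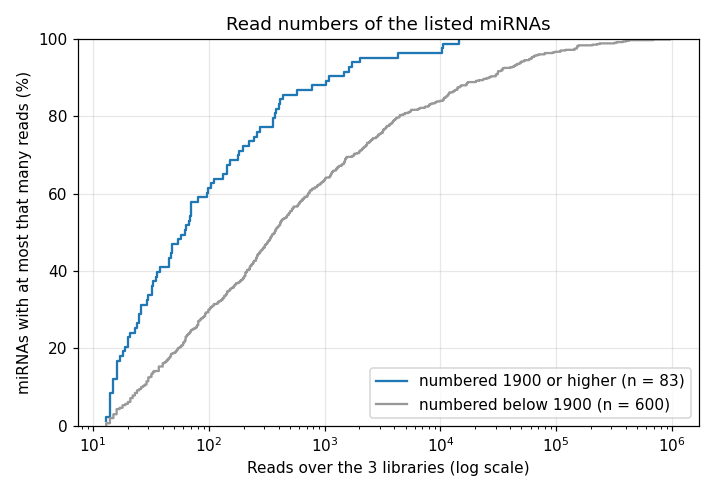
Cumulative percentage of listed miRNAs (vertical axis) by reads summed over the 3 libraries (horizontal log axis), for the 83 miRNAs numbered 1900 or higher and the 600 numbered below 1900. The curve of the late-numbered miRNAs lies to the left, with a median of 62 reads against 370.5.

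A few members held most of these reads. miR-1965, miR-1981-5p, miR-5109, miR-1983 and miR-1934-3p took 73.2% of all reads on late-numbered miRNAs. miR-1965 was at 380.0 RPM (368.5 to 391.7, 95% Poisson interval) in 0 hr, 350.9 (340.1 to 361.9) in 16 hrs SB and 639.0 (623.3 to 654.9) in 16+12 hrs. Even so it ranked 87 among all listed miRNAs in 0 hr and 69 in 16+12 hrs. miR-1981-5p was at 337.7, 207.1 and 449.8 RPM, with its lowest level in 16 hrs SB. miR-5109 had the reverse order, with 338.9, 384.5 and 226.2 RPM. miR-1983 was at 105.1, 134.7 and 163.5 RPM. These orders are in RPM. With scaling to listed reads, the log2 ratio of miR-1965 in 16 hrs SB over 0 hr was 0.12 in place of -0.12, and that of miR-1983 in 16+12 hrs over 16 hrs SB was -0.19 in place of 0.28, with no call for either.

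In the range below these, miR-1934-3p was at 61.2 RPM in 0 hr, 54.5 RPM in 16 hrs SB and 74.8 RPM in 16+12 hrs. miR-3095-3p was at 61.1, 31.7 and 69.6 RPM, so that the 16 hrs SB level stood apart from the others. miR-1968-5p was at 41.9, 42.4 and 54.5 RPM. All 3 had their highest RPM in 16+12 hrs. In total 23 of the 83 (27.7%) reached 10 RPM in at least 1 library, and 54.5% of all listed miRNAs did. By block these were 8 of 34 (23.5%) in the 1900s, 7 of 30 (23.3%) in the 3000s and 8 of 19 (42.1%) in the 5000s. In RPM, the highest level was in 16+12 hrs for 50 of the 83 (60.2%), and for 48.6% of all listed miRNAs. The lowest was in 16 hrs SB for 48 (57.8%), and for 48.2% of all listed. With scaling to listed reads the highest level was in 16+12 hrs for 34 (41.0%, and 34.1% of all listed), and the lowest in 16 hrs SB for 35 (42.2%, and 30.4% of all listed).

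**Figure D2:**
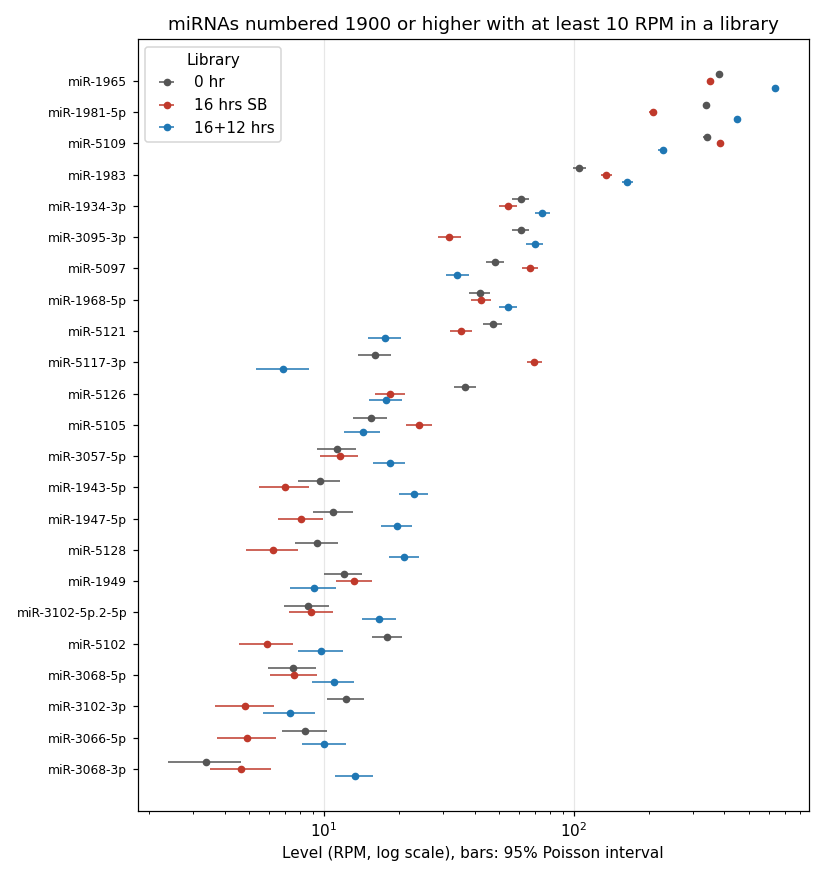
Level in RPM (horizontal log axis) of the 23 miRNAs numbered 1900 or higher that reached 10 RPM in a library, 1 point per library with its 95% Poisson interval. miR-1965 and miR-1981-5p were highest in 16+12 hrs, while miR-5109, miR-5097 and miR-5117-3p were highest in 16 hrs SB and lowest in 16+12 hrs.

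The comparison of 16 hrs SB with 0 hr asks which miRNAs differed once receptor signalling was blocked. A miRNA was called higher or lower when its log2 ratio of RPM was at least 0.32 in size and the Z-score of the difference in its share of reads lay outside the central 95% of the normal distribution, which are the criteria of the study's methods. This Z-score compares the reads of 2 libraries, not the conditions. Of the 83, 23 (27.7%) were called lower and 8 (9.64%) higher. Over all 693 listed miRNAs 30.2% were called lower and 15.3% higher. The median log2 ratio was -0.42 for the late-numbered miRNAs, -0.18 for those numbered below 1900 and -0.19 for all listed. When the libraries were scaled instead to their reads on listed miRNAs, these medians were -0.19, 0.05 and 0.04, and the late-numbered calls divided into 13 lower and 12 higher, with 20.8% lower and 23.8% higher over all listed.

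Among members with at least 100 reads in either library, the lowest ratio was that of miR-5102, with 17.9 RPM in 0 hr and 5.90 RPM in 16 hrs SB, a log2 ratio of -1.60 (-2.02 to -1.19). miR-3102-3p followed, with 12.2 RPM in 0 hr, 4.84 RPM in 16 hrs SB and a log2 ratio of -1.34 (-1.82 to -0.87). Then came miR-5126, whose mature sequence is made of G and C only, at 36.6 and 18.4 RPM, a log2 ratio of -0.99 (-1.24 to -0.75). The abundant miR-1981-5p and miR-3095-3p were also called lower, by -0.71 (-0.78 to -0.63) and -0.95 (-1.13 to -0.76) on the log2 scale. These 5 calls held under both other scalings of the libraries.

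The highest ratio in the same comparison, again with at least 100 reads in either library, was that of miR-5117-3p, at 16.0 RPM in 0 hr and 69.3 RPM in 16 hrs SB. This is a 4.34-fold difference, or 2.12 (1.88 to 2.36) on the log2 scale. miR-5105 was at 15.3 and 24.0 RPM, a log2 ratio of 0.65 (0.37 to 0.93). miR-5097 was at 48.3 and 66.7 RPM, a log2 ratio of 0.47 (0.30 to 0.63). All 3 come from the 5000s. From the 1900s, miR-1983 was called higher by 0.36 (0.25 to 0.47). miR-1935 was too, with 22 reads in 0 hr and 61 in 16 hrs SB.

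The comparison of 16+12 hrs with 16 hrs SB asks which miRNAs differed when the active receptor was induced after the block. These libraries also differ in Dox itself and in 12 hrs of further culture, which cannot be told apart from the receptor. The paper's check of Dox in J1 cells, which lack the receptor, held no late-numbered miRNA. Here 39 of the 83 (47.0%) were called higher and 6 (7.23%) lower, against 41.7% and 17.9% over all listed miRNAs. The median log2 ratio was 0.72 for the late-numbered miRNAs, 0.33 for those numbered below 1900 and 0.38 for all listed. Scaling to the reads on listed miRNAs turned the latter medians to -0.13 and -0.09, while that of the late-numbered miRNAs stayed above 0, at 0.25. Under that scaling their calls were 23 higher and 10 lower, with 23.5% higher and 31.5% lower over all listed.

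The largest ratios among the 20 members with at least 100 reads in either of these libraries were close to each other. miR-5128 was at 6.25 RPM in 16 hrs SB and 20.9 RPM in 16+12 hrs, a log2 ratio of 1.74 (1.35 to 2.15). miR-1943-5p was at 6.96 and 22.8 RPM, a log2 ratio of 1.71 (1.34 to 2.10), and miR-3068-3p at 4.67 and 13.2 RPM, a log2 ratio of 1.50 (1.03 to 1.99). Their intervals overlap, so their order was not detectable at this depth. miR-1981-5p and miR-3095-3p were called higher by 1.12 (1.05 to 1.19) and 1.13 (0.95 to 1.32), and miR-1965, which was not called in the preceding comparison, by 0.86 (0.81 to 0.92). The calls of these 6 held under both other scalings. miR-1934-3p and miR-1968-5p, called higher by 0.46 and 0.36, were not called under either of them, and with scaling to listed reads their ratios were -0.01 and -0.11.

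The 6 lower calls were miR-5117-3p, miR-5121, miR-5097, miR-5109, miR-5105 and miR-1949, so all but miR-1949 belong to the 5000s. miR-5117-3p went from 69.3 RPM in 16 hrs SB to 6.87 RPM in 16+12 hrs, which is 10.1-fold lower and -3.33 (-3.71 to -2.98) on the log2 scale. miR-5121 was at 35.4 and 17.5 RPM, a log2 ratio of -1.02 (-1.28 to -0.76). miR-5097 was at 66.7 and 34.2 RPM, a log2 ratio of -0.96 (-1.15 to -0.78). miR-5109, the most abundant of them, had a log2 ratio of -0.77 (-0.84 to -0.69), and miR-5105 one of -0.75 (-1.06 to -0.46). miR-1949 was at 13.2 and 9.10 RPM, a log2 ratio of -0.54 (-0.93 to -0.15).

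In 16+12 hrs over 0 hr, 24 of the 83 (28.9%) were called higher and 10 (12.0%) lower, with 30.6% and 19.8% over all listed miRNAs. The median log2 ratio was 0.33 for the late-numbered miRNAs, 0.16 for those numbered below 1900 and 0.19 for all listed. With scaling to listed reads these were 0.09, -0.08 and -0.05, and there were 17 higher and 14 lower calls, with 20.6% higher and 29.1% lower over all listed. Among the 22 members with at least 100 reads in either of these libraries, miR-3068-3p had the largest ratio, with 3.38 RPM in 0 hr and 13.2 RPM in 16+12 hrs, a log2 ratio of 1.97 (1.43 to 2.54). In the same 22, miR-1943-5p and miR-5128 followed, 2.38-fold (1.88 to 3.03) and 2.23-fold (1.75 to 2.85) higher. The smallest log2 ratios of the 22 were those of miR-5121 at -1.44 (-1.69 to -1.18), miR-5117-3p at -1.22 (-1.64 to -0.80) and miR-5126 at -1.05 (-1.31 to -0.79). miR-5121 was thus called lower in all 3 comparisons, although the call in 16 hrs SB over 0 hr was lost under both other scalings. For miR-1949, called lower here, the exact interval reached from -0.80 to 0.00, so this call is marginal.

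**Figure D3:**
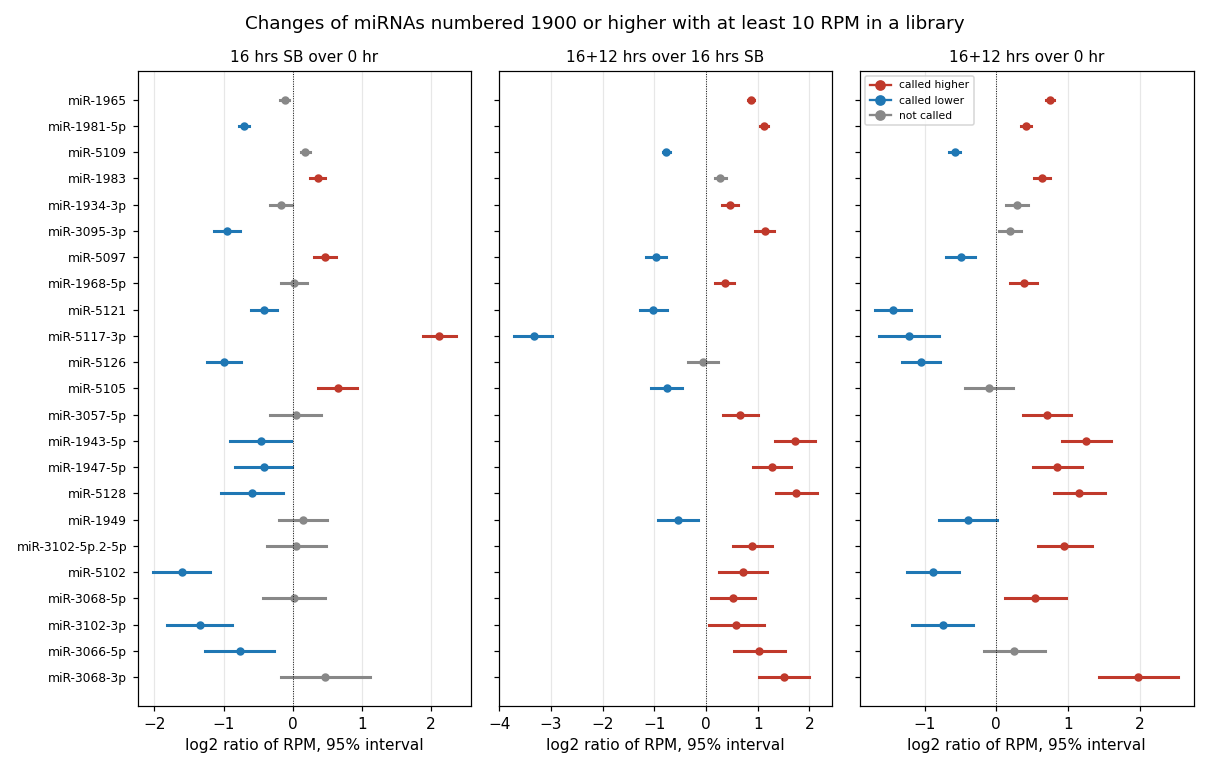
log2 ratio of RPM (horizontal axes) in the 3 comparisons for the 23 miRNAs numbered 1900 or higher that reached 10 RPM, with 95% intervals from the reads of both libraries. In 16+12 hrs over 16 hrs SB the lower calls are miR-1949 and members of the 5000s, with miR-5117-3p at -3.33.

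The activation profile, lower in 16 hrs SB over 0 hr and higher in 16+12 hrs over 16 hrs SB, was found in 18 of the 83 (21.7%), and in 20.9% of all listed miRNAs. Both comparisons share the 16 hrs SB library, so the calls are not independent. Of the 18, 12 had at least 100 reads over the 3 libraries. They were miR-1981-5p, miR-3095-3p, miR-1943-5p, miR-1947-5p, miR-5128, miR-5102, miR-3102-3p, miR-3066-5p, miR-3062-5p, miR-5113, miR-3474 and miR-5122. miR-1981-5p was the most abundant, and miR-5122 had the widest swing, with 66 reads in 0 hr, 14 in 16 hrs SB and 53 in 16+12 hrs. Its log2 ratio in 16 hrs SB over 0 hr was -2.29 (-3.24 to -1.44), and the level in 16+12 hrs was 4.34-fold (2.38 to 8.48) that in 16 hrs SB. miR-3066-5p was at 8.40, 4.93 and 10.0 RPM, and miR-1947-5p at 10.9, 8.10 and 19.6 RPM. The lower calls of miR-1943-5p, miR-1947-5p and miR-5128 in 16 hrs SB, and the higher calls of miR-5102, miR-3102-3p and miR-3062-5p in 16+12 hrs, were lost under both other scalings. With scaling to listed reads, 8 of the 83 (9.64%) had the profile, and 11.4% of all listed.

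The opposite profile was found in 3 of the 83 (3.61%), and in 9.67% of all listed miRNAs. They were miR-5097, miR-5117-3p and miR-5105, which all belong to the 5000s and were called the same way under every scaling. The fibroblast miRNAs moved the same way between the libraries, with 5314 RPM in 16 hrs SB against 2261 and 2888 RPM in the others, and their part was not tested. With scaling to listed reads, 7 of the 83 (8.43%) had the opposite profile, and 16.9% of all listed. With the median of ratios it was 6 (7.23%), and 15.6% of all listed.

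How often a call was made depended on the number of reads. Among the 51 late-numbered miRNAs with fewer than 100 reads, 17 (33.3%) were called higher and none lower in 16+12 hrs over 16 hrs SB. Of all listed miRNAs with so few reads, 19.6% were called higher and 8.94% lower. In the class from 100 to under 1000 reads, 17 of 22 (77.3%) were called higher and 2 lower, with 48.7% and 21.7% of all listed in that class. Among the 10 with 1000 or more reads, 5 were called higher and 4 lower, with 57.3% and 23.3% of all listed in that class, and the median log2 ratio was 0.32 against 0.49 for those numbered below 1900. In 16 hrs SB over 0 hr, the median log2 ratio of the late-numbered miRNAs with fewer than 100 reads was -0.57, against 0.06 for those numbered below 1900. From 100 to under 1000 reads it was -0.44 against -0.19, and for 1000 or more -0.05 against -0.24. From few to many reads, 9 of 51, 11 of 22 and 3 of 10 were called lower in that comparison, with 10.2%, 37.6% and 43.1% of all listed in the same classes. Called higher were 1, 4 and 3, with 7.23%, 20.4% and 18.5% of all listed.

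The calls were next counted by block of numbers, in 16+12 hrs over 16 hrs SB, where 41.7% of all listed miRNAs were called higher and 17.9% lower. In the 1900s, 16 of 34 (47.1%) were called higher and 1 (2.94%) lower. In the 3000s, 16 of 30 (53.3%) were called higher and none lower. In the 5000s, 7 of 19 (36.8%) were called higher and 5 (26.3%) lower. The shares of higher calls thus lay near that of all listed miRNAs. Scaled to listed reads, the higher and lower calls were 12 and 1 in the 1900s, 6 and 2 in the 3000s, and 5 and 7 in the 5000s. Over all listed miRNAs this scaling gave 23.5% higher and 31.5% lower, so the balance turned over all listed as well as in the 5000s. The median log2 ratios were 0.90, 0.78 and 0.20. Scaling to listed reads gave 0.43, 0.32 and -0.27. The median of all listed miRNAs went from 0.38 to -0.09 between the same scalings, so the change of sign in the 5000s is not particular to them. The summed level of the 1900s was 993.4 RPM in 0 hr, 843.4 RPM in 16 hrs SB and 1484 RPM in 16+12 hrs. That of the 3000s was 153.9, 106.2 and 196.7 RPM. The 5000s summed to 549.6, 624.1 and 377.3 RPM, highest in 16 hrs SB and lowest in 16+12 hrs. As a share of miRNA reads the 1900s were at 0.351%, 0.350% and 0.445%, so 0 hr and 16 hrs SB were nearly equal by this measure, while the 3000s (0.0543%, 0.0440% and 0.0589%) and the 5000s (0.194%, 0.259% and 0.113%) kept the order they had in RPM. Without miR-5109, the most abundant member, the 5000s summed to 210.7, 239.6 and 151.2 RPM, in the same order. Without miR-5097 and miR-5117-3p as well, which were left out because they have that order themselves, the other 16 summed to 146.4, 103.7 and 110.2 RPM. miR-5105 and miR-5100 also have that order and were kept. Since the removal was chosen on the order, the different order of this last sum is not a result. Without miR-1965 and miR-1981-5p, the 1900s summed to 275.7, 285.4 and 395.3 RPM, and as a share of miRNA reads the remaining 32 were at 0.0973%, 0.118% and 0.118%.

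**Figure D4:**
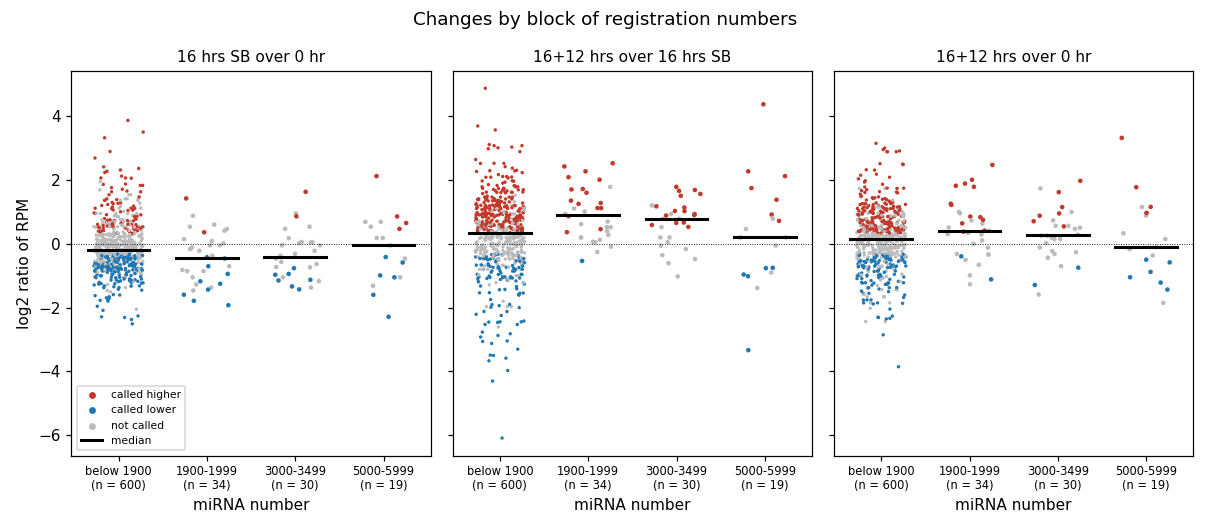
log2 ratio of RPM (vertical axis) of each listed miRNA in the 3 comparisons, by block of miRNA number, with calls in colour and the median as a black bar. In 16+12 hrs over 16 hrs SB the medians are 0.33 below 1900, 0.90 in the 1900s, 0.78 in the 3000s and 0.20 in the 5000s, and with scaling to listed reads those below 1900 and in the 5000s are -0.13 and -0.27.

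Arm balance was compared for hairpins with both arms listed. There were 11 such duplexes among the late-numbered miRNAs, 9 of them with at least 100 reads on both arms together. In these 9 the stronger arm held a median of 93.1% of the reads, against 88.4% in 211 hairpins numbered below 1900. The stronger arm held at least 90% in 7 of 9, against 47.4% of the others. It was the 5p arm in 7 of 9, against 47.4%. It was the same arm in every library in 7 of 9 late-numbered duplexes and in 192 of 211 others. The number of late-numbered duplexes is small, and these shares are a description.

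miR-1981 was the most one-sided. Its 5p arm held 99.7% of the reads in 0 hr, 99.5% in 16 hrs SB and 99.8% in 16+12 hrs, with 10, 11 and 9 reads of miR-1981-3p. miR-1934 favoured the 3p arm, with 98.7%, 98.7% and 96.4%. miR-1934-5p had 9, 8 and 28 reads in the same libraries and was called higher in 16+12 hrs over 16 hrs SB. miR-3057, miR-1943, miR-3066 and miR-3062 favoured the 5p arm in every library, with between 88.8% and 96.8%. The remaining pairs, miR-1955 with 86 reads and miR-1933 with 39 reads, had too few reads for a narrow interval.

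In the other duplexes the balance differed between libraries. The 5p share of miR-3068 was 68.9% (59.8 to 77.1) in 0 hr, 61.9% (53.3 to 70.0) in 16 hrs SB and 45.2% (38.8 to 51.7) in 16+12 hrs. The interval in 16+12 hrs did not overlap those of the other libraries. The reads behind these shares were 82, 86 and 108 of miR-3068-5p and 37, 53 and 131 of miR-3068-3p, so the difference came mostly from the 3p arm. The 5p share of the outer miR-3102 duplex was 27.2% (20.9 to 34.2), 47.6% (37.8 to 57.6) and 53.5% (45.4 to 61.6). Here 0 hr stood apart, through miR-3102-3p, which had 134 reads in 0 hr, 55 in 16 hrs SB and 72 in 16+12 hrs. The inner duplex had 5p shares of 83.2% (75.0 to 89.6), 91.8% (85.0 to 96.2) and 95.9% (91.7 to 98.3), with 94, 101 and 164 reads of miR-3102-5p.2-5p and 19, 9 and 7 of miR-3102-3p.2-3p. Both 3p products of this hairpin were thus highest in 0 hr and both 5p products in 16+12 hrs. These shares do not depend on the scaling, since both arms come from the same library.

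**Figure D5:**
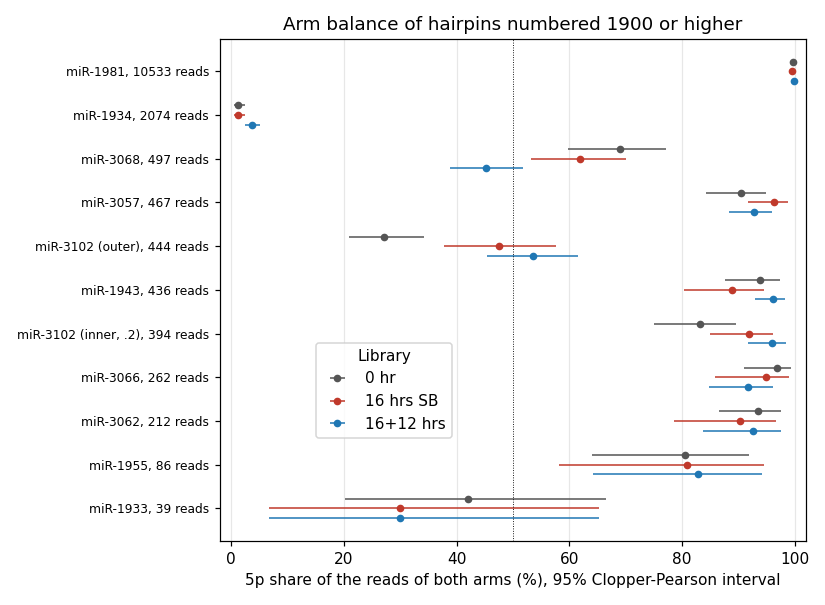
Share of the reads of both arms that lay on the 5p arm (horizontal axis, percent) for the 11 late-numbered duplexes, 1 point per library with its 95% Clopper-Pearson interval. miR-1981 and miR-1934 stay at the ends, while miR-3068 and the outer miR-3102 duplex change side between libraries.

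The names themselves carried less arm information. Of the 83, 44 were named with an arm (27 as 5p and 17 as 3p) and 39 were not, among them 16 of the 19 in the 5000s. Below 1900, 580 of 600 had an arm in the name. For a name without an arm, no balance could be computed.

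In sequence, the late-numbered miRNAs were richer in G and C. The median GC content of the 62 matched mature sequences was 54.5%, against 47.6% for the 450 numbered below 1900, and 22 (35.5%) had 60% or more, against 16.0%. In the 5000s the median was 60.9%, and miR-5126 reached 100%. The median length was 22 bases in both sets. A U at the first base, which Argonaute proteins often prefer, was found in 33.9% of the late-numbered and 39.6% of the other sequences, with 7 of 25 in the 1900s, 12 of 26 (46.2%) in the 3000s and 2 of 11 (18.2%) in the 5000s. In 16+12 hrs over 16 hrs SB, the late-numbered miRNAs had a median log2 ratio of 0.91 at 60% GC or more and 0.68 below it. Those numbered below 1900 had 0.89 and 0.31, and the part of GC content in the differences between the sets was not tested. In 16+12 hrs over 0 hr the late-numbered miRNAs had 0.30 at 60% GC or more and 0.33 below it, while those numbered below 1900 had 0.47 and 0.09.

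Of the 83, 72 were placed on GRCm38, by the mature sequence (62) or the hairpin (10). Only protein-coding and long noncoding genes on the same strand that spanned the miRNA were counted as hosts. Genes on the other strand and short RNA genes were not. By this count 38 of the 72 (52.8%) lay in introns, 20 (27.8%) overlapped exons and 14 (19.4%) lay outside such genes. Among the 543 placed miRNAs numbered below 1900 the shares were 42.5%, 18.4% and 39.0%. In the 1900s 20 of 29 were intronic (69.0%), in the 3000s 15 of 30, and in the 5000s 3 of 13 (23.1%), where 7 of 13 (53.8%) overlapped exons. The mature miR-1981-5p lies at chr1:184822465-184822488 on the minus strand in an intron of Marc2, a mitochondrial amidoxime reductase gene. miR-3095-3p lies at chr4:58441023-58441045 on the minus strand in an intron of Lpar1, a lysophosphatidic acid receptor gene. miR-1943-5p lies at chr15:79375271-79375293, minus strand, in an intron of Tmem184b, and miR-5128 at chr2:37688212-37688234, minus strand, in an intron of Strbp. All 4 products of miR-3102 lie on the minus strand between chr7:100882307 and chr7:100882409 and overlap an exon of Arhgef17. miR-1934-3p, at chr11:69663092-69663113 on the plus strand, and miR-5126, at chr1:84695890-84695911 on the plus strand, lie outside the genes counted as hosts.

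Of the 72 placed miRNAs, 5 (6.94%) overlapped an entry that the annotation classes as another short RNA, here a snoRNA or tRNA. Of the placed miRNAs numbered below 1900, 1.29% overlapped such an entry. For miR-5117-3p and both arms of miR-3068 that entry bears the name of the miRNA itself, so by position only miR-5121 and miR-1983 overlapped a differently named short RNA. By sequence, miR-3470b, with 25 reads over the libraries, also lies within Gm22642 and Gm25735, classed as miscellaneous RNA. miR-5121, at chr7:45126925-45126945, lies wholly within Snord33, a snoRNA gene in Rpl13a, which encodes a ribosomal protein. miR-5117-3p was placed through an entry named Mir5117 that GENCODE classes as a snoRNA, at chr1:161037356-161037439 in Gas5, a known host gene of snoRNAs. miR-1983, at chr13:21896930-21896950, overlaps the tRNA gene n-TItat14, which spans 21896938 to 21897031. miR-3068-5p and miR-3068-3p both lie within a snoRNA entry that is itself named Mir3068, in an intron of Alkbh1. These 5 include miR-5117-3p, which had the largest ratio in 16 hrs SB over 0 hr and the smallest in 16+12 hrs over 16 hrs SB among members with at least 100 reads in either library. Reads of a miRNA and reads of fragments of the overlapping RNA cannot be told apart in these values. Without the 2 overlapping members of the 5000s, an alternative chosen after the values were seen, that block summed to 486.3, 519.4 and 353.0 RPM, and its median log2 ratio in 16+12 hrs over 16 hrs SB was 0.46 in place of 0.20. In that block 6 members were not placed, among them miR-5109, miR-5097 and miR-5105, so their overlap with other short RNAs is unknown.

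No 2 late-numbered miRNAs had the same reads in every library, but 5 had the same 3 read numbers as a miRNA numbered below 1900. They were miR-3107-5p with miR-486-5p (10, 32 and 20 reads), miR-1940 with miR-539-3p (24, 11 and 10), miR-1966 with miR-326-5p (7, 3 and 4), miR-1955-3p with miR-487b-5p (7, 4 and 5) and miR-5123 with miR-702 (5, 5 and 5). The authors gave a read that matched several miRNAs to each of them where length did not decide. The values of such pairs are therefore uncertain, and at these low numbers equal reads can also be unrelated.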

How the data were processed

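Total RNA with its short fraction was sequenced by the authors as 36-base single-end reads (Illumina GAII, 2 runs pooled per library). Adaptors were clipped (FASTX), reads longer than 16 bases were kept and perfect matches to miRBase release 18 were taken with Bowtie 0.12.7 (version per the submitters' processing notes). Entries with a sum of 10 reads or more were kept. The deposited values are RPM, normalised by the authors to the reads of each library. Every value was within 0.01 of a whole multiple of the library's step (0.0913, 0.0881 and 0.101 RPM per read), which gave the reads. Ratios had no pseudocount. Calls used the criteria of the methods (1.25-fold, Z-score of 1.96, two-proportion) over all 693 miRNAs. Intervals are exact at 95% and cover counting error only. The named miRNAs were those with 10 RPM in a library, both arms of listed duplexes, the 3 largest and 3 smallest ratios per comparison among those with 100 reads in either library, profile members with 100 reads, and miRNAs with shared values or sequences. A few others were named after their values were seen. Members, lists and tests were chosen with earlier results of these data known. Sequences and positions came from RefSeq GRCm38.p6 and GENCODE M21, by name. Python 3.11.15, numpy 2.4.6, pandas 2.3.3, scipy 1.17.1 and matplotlib 3.10.9 were used.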

Additional observations from a re-analysis of the deposited data

How the results depend on the processing

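No paired analysis was possible because each condition had 1 library. No library could be left out for the same reason. Of 91 recomputed values for 18 results, 54 stayed within their bound, 37 moved past it and none changed sign. The bound was the 95% interval of a share, the median lower and upper interval limits of the miRNAs for a median, and 1.5 times for a count. In the order higher and lower, the counts for 16 hrs SB over 0 hr (8 and 23), 16+12 hrs over 16 hrs SB (39 and 6) and 16+12 hrs over 0 hr (24 and 10) changed as follows. With scaling to the reads on listed miRNAs, lower calls were 13 in 16 hrs SB over 0 hr (20.8% of all listed). In 16+12 hrs over 16 hrs SB there were 23 higher and 10 lower (23.5% and 31.5%). The activation profile then had 8 members and the opposite profile 7 (11.4% and 16.9%). With the median of ratios these numbers were 15, 25, 10, 9 and 6 (21.6%, 26.7%, 29.0%, 12.4% and 15.6% of all listed). At a fold of at least 2 there were 3 higher and 13 lower (7.07% and 9.67% of all listed), 2 lower (9.67%), and 13 higher and 5 lower calls (13.6% and 8.08%), with 8 activation and 1 opposite profile. Without the Z-score there were 19 higher and 44 lower (26.0% and 42.9%), 12 lower (26.6%), and 42 higher and 21 lower calls (42.6% and 29.1%), with 35 activation and 6 opposite profiles. With at least 100 reads over the libraries, which leaves 32 of the 83, there were 14 lower, 22 higher and 14 higher calls in the 3 comparisons (40.4%, 53.1% and 39.1% of all listed with as many reads). The median level was then 11, 7.84 and 13.7 RPM in 0 hr, 16 hrs SB and 16+12 hrs, and the share of miRNA reads 0.580%, 0.636% and 0.595%. Scaled to 1000000 reads on listed miRNAs the median level was 6.12, 5.11 and 8.48. With at least 1000 reads per duplex, which leaves 2, the median share of the stronger arm was 98.8%. Adding 1 RPM, or counting miRNAs with equal reads once, moved no value past its bound, but these bounds are wide for medians. The median log2 ratios (-0.42, 0.72 and 0.33 in the 3 comparisons) were -0.17, 0.46 and 0.22 with 1 RPM added, and -0.14, 0.69 and 0.35 with at least 100 reads. With scaling to listed reads they were -0.19, 0.25 and 0.09, and with the median of ratios -0.24, 0.34 and 0.13. Most late-numbered miRNAs had fewer than 100 reads, so single ratios among them are imprecise. Intervals and Z-scores hold no spread between cultures.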
